A study of Mus musculus with 6 samples.

Results

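The genes described here form the loop between Indian hedgehog and parathyroid hormone-related protein (PTHrP) in growth cartilage. They are the ligand gene Ihh, the PTHrP gene Pthlh with its receptor gene Pth1r, the hedgehog receptor genes Ptch1 and Smo, the decoy receptor gene Hhip, and the transcription factor genes Gli1, Gli2 and Gli3. The 9 were chosen by name, and 8 of the 9 were among the 14882 genes with a value in the table analysed. Pthlh was not among them and is not analysed here.

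In the growth plate, chondrocytes that leave the proliferative pool secrete Indian hedgehog. The signal reaches cells through Patched-1, which otherwise holds Smoothened inactive. Active Smoothened changes the Gli factors, of which Gli1 is an activator and itself a target, Gli2 acts mainly as an activator and Gli3 mainly as a repressor. Ptch1, Gli1 and Hhip are the commonly used readouts of the pathway. Indian hedgehog maintains PTHrP production near the end of the bone, and PTHrP, acting on Pth1r in proliferating and prehypertrophic chondrocytes, delays hypertrophy.

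Expression was measured by mRNA sequencing of the hypertrophic zone, cut from growth plates at the upper end of the tibia of C57BL/6 mice aged 7 days, in 3 wild-type (WT) libraries and 3 libraries from Adamts17-/- littermates. Adamts17 encodes a secreted metalloprotease, and the labels do not say how its allele was made. The zones were isolated by laser microdissection and their mRNA was amplified linearly before library preparation. The labels do not say whether each library was 1 animal, so p-values measure the spread between libraries, and in bulk tissue fewer cells of a type cannot be told apart from less RNA per cell.

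The libraries were shallow, from 595989 to 2688295 read equivalents (values converted back to the worth of 1 read) on listed genes. Col10a1, the collagen that defines hypertrophic cartilage, ranked between 4 and 108 from the top in every library. Adamts17 could not check the genotype labels, since all WT libraries together held 6.49 of its read equivalents and all Adamts17-/- libraries 1.25. WT replicate 1 stood apart by skeletal muscle markers (summed level of 13 genes 16708 RPKM, against 266 to 1535 in the other 5). Adamts17-/- replicate 2 stood apart by erythroid markers (265227 RPKM over 12 genes, against 3240 to 69754) and by myeloid markers (52184 RPKM over 12 genes, against 194 to 2134).

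In the 4 loop genes abundant enough to test, no difference between genotypes was larger than the spread between libraries. With limma over 9128 genes, 0 of the 4 members that passed the filter (1 RPKM or more in 3 or more libraries) had an adjusted p under 0.05, and 0% of all genes did. At an unadjusted p under 0.05 the members numbered 0, against 2.51% of all genes. Genes whose groups did not overlap were 6.63% of all tested genes (3.09% higher and 3.54% lower in Adamts17-/-) and 0 of these 4 members. Of the 4, Ihh was numerically higher in Adamts17-/- and Pth1r, Gli1 and Smo were numerically lower. Their median log2 fold change was -0.43, beside 0.08 over all tested genes. The member genes differed widely in level, from Pth1r among the most abundant transcripts of the zone to Ptch1 at the limit of detection, as the plot of levels by library shows.

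**Figure D1:**
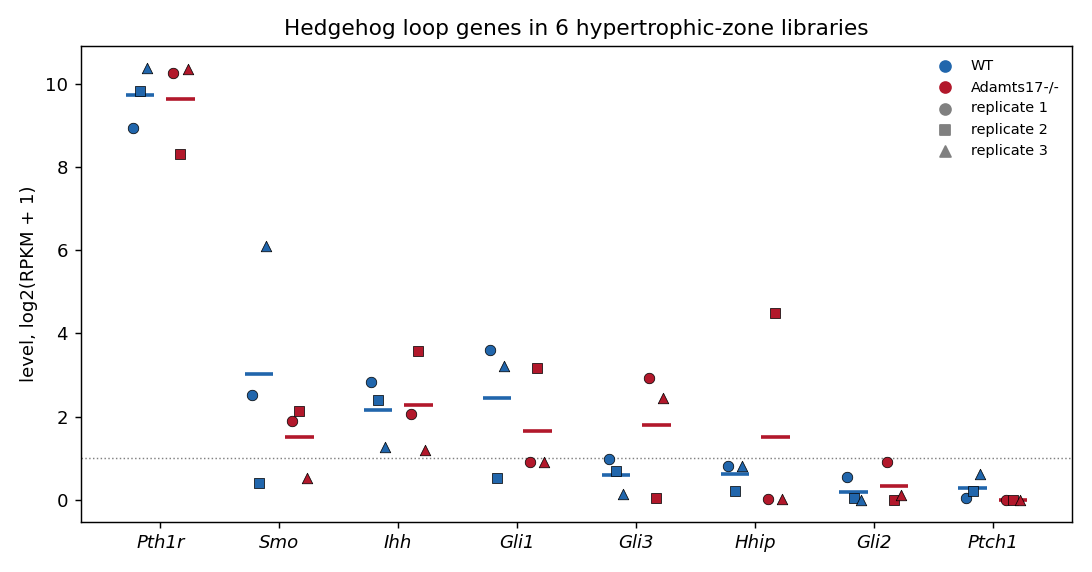
Level of the 8 measured loop genes in each library, as log2(RPKM + 1) on the vertical axis. Blue is WT and red is Adamts17-/-, the shape gives the replicate, short bars are group means and the dotted line marks an RPKM of 1. Pth1r lies above every other member in 6 of 6 libraries, Smo and Hhip each have 1 high library, and Ptch1 stays below the dotted line.

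Ihh (Entrez gene 16147, chromosome 1, 74945318 to 74951651 on the minus strand, transcript length 2444 bases) encodes the ligand of the loop. Its level was 6.17, 4.26 and 1.43 RPKM in WT replicates 1, 2 and 3, and 3.21, 10.99 and 1.28 RPKM in Adamts17-/- replicates 1, 2 and 3. The highest and the lowest library both belonged to Adamts17-/-, and the groups overlapped. On the log2 scale the genotype difference was 0.11 ± 1.53 (SE, 3 libraries per group, adjusted p = 0.999 by limma), and its sign turned with upper-quartile scaling (-0.17), with quantile normalization (-0.014) and without WT replicate 3 or Adamts17-/- replicate 2 (-0.34 and -0.54).

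The reads behind Ihh were few. Their number, in read equivalents, was 43.1, 8.18 and 3 (WT) and 8.05, 56.3 and 2 (Adamts17-/-). The deepest libraries, WT replicate 1 and Adamts17-/- replicate 2, thus gave the values with the most reads behind them, and also the highest. Its levels spanned 2.39 on the log2(RPKM + 1) scale between the lowest and the highest library, where 1449 genes of similar mean level had a median span of 4.52 and 4.90% had a smaller one.

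Pth1r (Entrez gene 19228, chromosome 9, 110722085 to 110747145 on the minus strand, transcript length 2721 bases) encodes the G protein-coupled receptor for PTHrP. Its level was 485, 911 and 1336 RPKM in WT replicates 1, 2 and 3, and 1213, 317 and 1300 RPKM in Adamts17-/-. It ranked 101, 47 and 59 from the top in WT and 73, 291 and 29 in Adamts17-/-, so it belonged to the most abundant transcripts of the zone in both genotypes. The groups overlapped throughout, with the lowest value in Adamts17-/- replicate 2. On the log2 scale the genotype difference was -0.08 ± 0.97 (SE, 3 libraries per group, adjusted p = 0.999 by limma), and it turned to 0.26 without WT replicate 3 and to 0.58 without Adamts17-/- replicate 2. With 1809 to 3769 read equivalents in each library, counting error of the reads was small beside the differences between libraries. Reads were counted after amplification, so they do not measure sampling error before it.

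Pth1r was compared with Col10a1 within each library, since both are transcripts of maturing chondrocytes. The level of Pth1r was 21.9%, 6.83% and 22.8% of that of Col10a1 in WT and 84.4%, 21.0% and 31.3% in Adamts17-/-. The groups overlapped, because Adamts17-/- replicate 2 lay below WT replicates 1 and 3. Col10a1 itself had levels of 2218, 13347 and 5866 (WT) and 1437, 1507 and 4151 RPKM (Adamts17-/-) (log2 fold change -1.42 ± 0.88, SE, limma adjusted p = 0.999), which overlapped too.

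Across the 6 libraries the levels of Ihh and Pth1r ran opposite to each other. On the log2(RPKM + 1) scale Pearson's r was -0.94 (exact permutation p = 0.00556, adjusted over 15 pairs of members p = 0.0833) and Spearman's rho was -0.94 (exact permutation p = 0.0167, adjusted p = 0.0833), so the relation failed the correction. Without the 2 libraries farthest from the median of Ihh, both Adamts17-/- (replicates 2 and 3), r was -0.88 over 4 libraries. Within the genotypes r was -0.93 in WT and -0.95 in Adamts17-/-, each over 3 libraries. Both libraries with the most read equivalents and with the highest muscle or blood markers held the highest Ihh and the lowest Pth1r, while WT replicate 3 and Adamts17-/- replicate 3, at the other end, had 19.1% and 15.4% of their read equivalents on 1 gene, Fndc9, against 2.26% to 5.92% in the other 4. The part of depth, of these other tissues and of Fndc9 in the relation was not tested. Of the other 14 pairs none passed the correction.

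**Figure D2:**
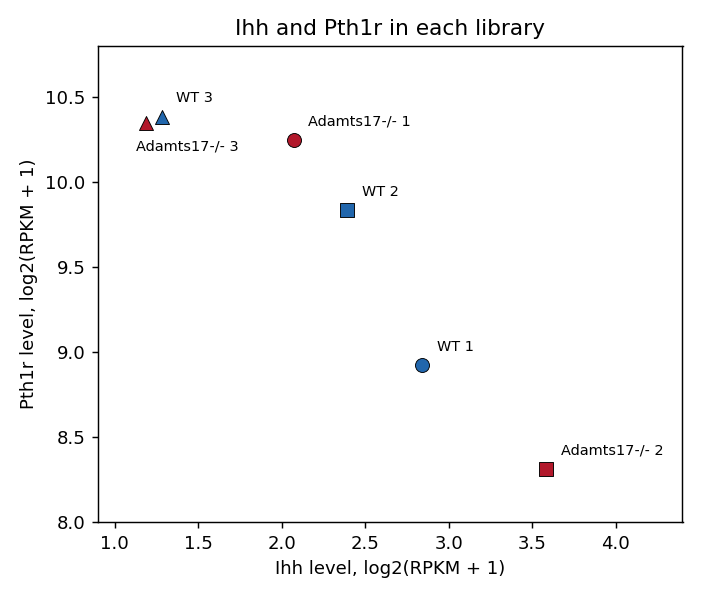
Levels of Ihh (horizontal axis) and Pth1r (vertical axis) in each of the 6 libraries, both as log2(RPKM + 1), with WT in blue and Adamts17-/- in red. Libraries of both genotypes run from high Pth1r with low Ihh to low Pth1r with high Ihh, and the genotypes are interleaved along that line.

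The genes whose profile over the 6 libraries was most like that of Ihh were Mepce, Kpnb1 and Polr2a, which encode an RNA methylphosphate capping enzyme, a nuclear import receptor and the largest subunit of RNA polymerase II. Their Pearson r with Ihh was 0.997, 0.994 and 0.991, the highest among 6546 genes with a mean of at least 5 RPKM. For Pth1r they were Ajuba, Rai14 and Sox4 (r of 0.994, 0.982 and 0.976). These r values describe 6 libraries that also differ in depth and composition.

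Smo (Entrez gene 319757, chromosome 6, 29735497 to 29761366 on the plus strand, transcript length 3977 bases) encodes the transducer that Patched-1 restrains. Its level was 4.75, 0.336 and 68.2 RPKM in WT and 2.73, 3.37 and 0.438 RPKM in Adamts17-/-. WT replicate 3 alone was high, with 232 of the 328 read equivalents of the gene, and the remaining WT values spanned those of Adamts17-/-. On the log2 scale the genotype difference was -1.50 ± 1.64 (SE, 3 libraries per group, adjusted p = 0.999 by limma), and without WT replicate 3 it was 0.047. The span of Smo over the libraries, 5.69 on the log2(RPKM + 1) scale, was larger than that of 82.3% of the 1422 genes at a similar mean level.

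Ptch1 (Entrez gene 19206, chromosome 13, 63511533 to 63565520 on the minus strand, transcript length 4305 bases), the hedgehog receptor and a target of the pathway, was at the limit of detection. Its level was 0.0339, 0.171 and 0.543 RPKM in WT, and it was listed at 0 in all 3 Adamts17-/- libraries. The groups did not overlap, with Adamts17-/- below WT. This held for 4.63% of all 14881 genes with any value above 0. The WT values rested on 0.417, 0.577 and 2 read equivalents. A count of 0 allows up to 3 read equivalents, or 0.678, 0.332 and 1.09 RPKM in Adamts17-/- replicates 1, 2 and 3, so a difference in Ptch1 was not detectable at this depth. Of 191 genes with at most 3 read equivalents over the 6 libraries, 25 were at 0 in all Adamts17-/- libraries and 9 were at 0 in all WT libraries.

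The table's gene model of Ptch1 ended 3205 bases short of the 3' end in RefSeq (GRCm38.p6), whereas the models of the other 7 members reached it within 3 bases. Among 13847 genes compared in this way, 1134 (8.19%) ended more than 1000 bases short, with a median level of 2.82 RPKM against 4.92 RPKM for the rest. Linear amplification of mRNA often starts from the poly(A) tail, but the priming used for these libraries is not given here. The part of the short model in the low level of Ptch1 was not tested. No fold is given for Ptch1, since both groups lay at or under 3 read equivalents in every library.

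The genes most like Ptch1 were Spc25, Tdrd3 and Adamts13 (r of 0.982, 0.967 and 0.963 over 6 libraries), each highest in WT replicate 3. The Ptch1 profile rests on 2.99 read equivalents in all.

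Hhip (Entrez gene 15245, chromosome 8, 79965851 to 80058008 on the minus strand, transcript length 9078 bases) encodes a membrane protein that binds hedgehog ligands and limits their reach. Its level was 0.759, 0.170 and 0.772 RPKM in WT and 0.0179, 21.4 and 0.0192 RPKM in Adamts17-/-. One library, Adamts17-/- replicate 2, held 408 of the 435 read equivalents of the gene. The other Adamts17-/- libraries lay numerically below every WT library, on 0.167 and 0.111 read equivalents in replicates 1 and 3. WT replicates 1, 2 and 3 held 19.7, 1.21 and 6. Values under 3 read equivalents cannot be ranked, so these libraries were not separated from WT replicate 2. The gene did not pass the filter. In the fit without one, its difference on the log2 scale was 0.89 ± 1.19 (SE, 3 libraries per group, adjusted p = 0.99996 by limma), and without Adamts17-/- replicate 2 it was -0.60.

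Osteoblast markers did not move as a list with Hhip. Their summed level over 12 genes was highest in the library with high Hhip, 5381 RPKM against 689 to 1478 RPKM in the other 5, but 5175 RPKM of it came from the collagen genes Col1a1 and Col1a2. The sum of the other 10 was lowest in that library, 206 RPKM against 209 to 1195 RPKM. Of the 12 genes, 3 were highest there (Col1a1, Col1a2 and Dmp1) and 2 were lowest (Omd and Phex). Sp7, an osteoblast transcription factor, was at 0.230 RPKM there and at 4.64 RPKM in WT replicate 2. The blood markers given above were highest in the same library. The part of these cells in the level of Hhip was not tested.

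The upstream sequences of the members were searched for a GLI consensus (GACCACCCA, both strands) and for a full cAMP response element (TGACGTCA, which reads alike on both strands), the latter because Pth1r acts largely through cAMP. The windows ran from 250 bases before to 50 bases after each start in RefSeq (GRCm38.p6), and 8 of the 9 members had at least 1 window, Gli1 being the exception. No window of a member held the GLI letters, which occur in 0.253% of 32851 windows of this length. The cAMP element occurred in 1 member, Hhip, and in 1.79% of all windows. Its match, shown in capitals because Hhip is the member with the widest range over libraries relative to its level, starts 75 bases before the start of the gene on the minus strand, in the stretch chr8:80058052-80058107.
Hhip: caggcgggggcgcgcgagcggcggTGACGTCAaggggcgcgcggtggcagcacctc
A match describes letters and not a bound site, and the absence of a match concerns these windows.

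Gli1 (Entrez gene 14632, chromosome 10, 127329882 to 127341579 on the minus strand, transcript length 3662 bases) is the activator whose own transcription follows hedgehog activity. Its level was 11.1, 0.452 and 8.27 RPKM in WT and 0.890, 8.005 and 0.890 RPKM in Adamts17-/-. Each genotype had both high and low libraries: WT replicates 1 and 3 and Adamts17-/- replicate 2 were high, and the other 3 lay below 1 RPKM. The low values rested on 1.3 (WT replicate 2), 3.35 and 2.08 read equivalents (Adamts17-/- replicates 1 and 3). The high libraries were also the 3 deepest, with 1662637, 899162 and 2688295 read equivalents on listed genes. The low ones had 722119, 882809 and 595989. The part of depth in this split was not tested. On the log2 scale the genotype difference was -0.78 ± 1.51 (SE, 3 libraries per group, adjusted p = 0.999 by limma). It stayed below 0 with each library left out, from -1.74 to -0.21.

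The 3 libraries with high Gli1 also had the highest summed level of 12 perichondrium and fibroblast markers. These sums were 364 and 198 RPKM in WT replicates 1 and 3 and 96.7 RPKM in Adamts17-/- replicate 2, against 28.4 RPKM in WT replicate 2 and 45.5 and 40.2 RPKM in Adamts17-/- replicates 1 and 3. Of the 12 markers, 2 split in the same way gene by gene (Thy1 and Pdgfra) and the others did not. Dcn, for example, was listed at 0 in WT replicate 3 and was at 30.4 RPKM in Adamts17-/- replicate 1, and Pdgfrb was at 28.4 RPKM in Adamts17-/- replicate 3 against 6.16 RPKM in Adamts17-/- replicate 2. Mmp13, the collagenase of late hypertrophic cells, split the same way, at 1150, 1861 and 424 RPKM against 40.9, 71.2 and 36.6 RPKM. So did Spp1, at 382, 647 and 187 RPKM against 96.0, 77.5 and 107 RPKM. All others of the 17 hypertrophic markers with values did not. Col10a1, for example, was at 2218, 5866 and 1507 RPKM against 13347, 1437 and 4151 RPKM. Whether the cells that carry these markers bear on Gli1 was not tested.

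In RefSeq, Gli1 overlaps the opposite-strand gene Arhgap9 by 66 bases. Strand is not stated for the counting, so reads there cannot be told apart. Arhgap9 had levels of 2.83, 0 and 0.134 (WT) and 0.0218, 16.8 and 0 RPKM (Adamts17-/-). Its highest values were in Adamts17-/- replicate 2 and WT replicate 1, where Gli1 was high too. It was low in WT replicate 3, where Gli1 was also high. The part of Arhgap9 reads in the level of Gli1 was not tested.

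Gli3 (Entrez gene 14634, chromosome 13, 15463723 to 15730025 on the plus strand, transcript length 8426 bases) encodes the main repressor of the pathway. Its level was 0.973, 0.616 and 0.101 RPKM in WT and 6.64, 0.0312 and 4.47 RPKM in Adamts17-/-. Adamts17-/- replicates 1 and 3 lay above every WT library, on 57.5 and 24 read equivalents. Replicate 2 lay numerically below every one, on 0.552 read equivalents, against 0.729 in WT replicate 3. The gene missed the filter, and in the fit without one its difference on the log2 scale was 1.21 ± 1.21 (SE, 3 libraries per group, adjusted p = 0.99996 by limma). The value stayed above 0 with each library left out, from 0.64 to 2.09. Gli3 and Hhip were ordered almost oppositely (Spearman's rho of -0.94 over 6 libraries, exact permutation p = 0.0167, adjusted p = 0.0833, and Pearson's r of -0.61, exact permutation p = 0.0139, adjusted p = 0.104). Without the 2 libraries farthest from the median of Gli3, r was -0.64. Within the genotypes r was -0.19 in WT and -0.99 in Adamts17-/-, each over 3 libraries. The lower ranks of both genes rested on less than 3 read equivalents, so their order there is uncertain. Gli1 and Smo had a Spearman's rho of 0.94 (exact permutation p = 0.0167, adjusted p = 0.0833) and a Pearson's r of 0.68.

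Gli2 (Entrez gene 14633, chromosome 1, 118834061 to 119053619 on the minus strand, transcript length 6708 bases) was barely detected. Its level was 0.472, 0.0285 and 0 RPKM in WT and 0.871, 0.00711 and 0.0839 RPKM in Adamts17-/-. WT replicate 1 and Adamts17-/- replicate 1 exceeded 3 read equivalents, with 9.05 and 6. The log2 fold change without a filter was 0.14 ± 0.33 (SE, 3 libraries per group, adjusted p = 0.99996 by limma), and it turned to -0.14 without Adamts17-/- replicate 1.

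By mean log2(RPKM + 1) over the 6 libraries the order of levels was Pth1r, Smo, Ihh, Gli1, Gli3, Hhip, Gli2 and Ptch1. The step from Pth1r (mean 9.67) to Smo (2.27) held in 6 of 6 libraries. Smo and Ihh (2.23) were not separated, and Smo was the higher in 1 library. Neighbours further down kept their order in 3 or 4 libraries each, so the order of neighbours below Pth1r lies within the spread. Among genes further apart, Ihh (1.28 RPKM or more) lay numerically above Gli2 (at most 0.871 RPKM) and Ptch1 (at most 0.543 RPKM) in every library. In WT replicate 3 and Adamts17-/- replicate 3, Ihh had 3 and 2 read equivalents and Ptch1 had 2 and 0. Ihh was therefore not separated from either gene in those libraries. The ratio of the Pth1r level to the Ihh level ran from 28.8 in Adamts17-/- replicate 2 to 1014 in Adamts17-/- replicate 3, and was 78.5, 214 and 932 in WT.

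**Figure D3:**
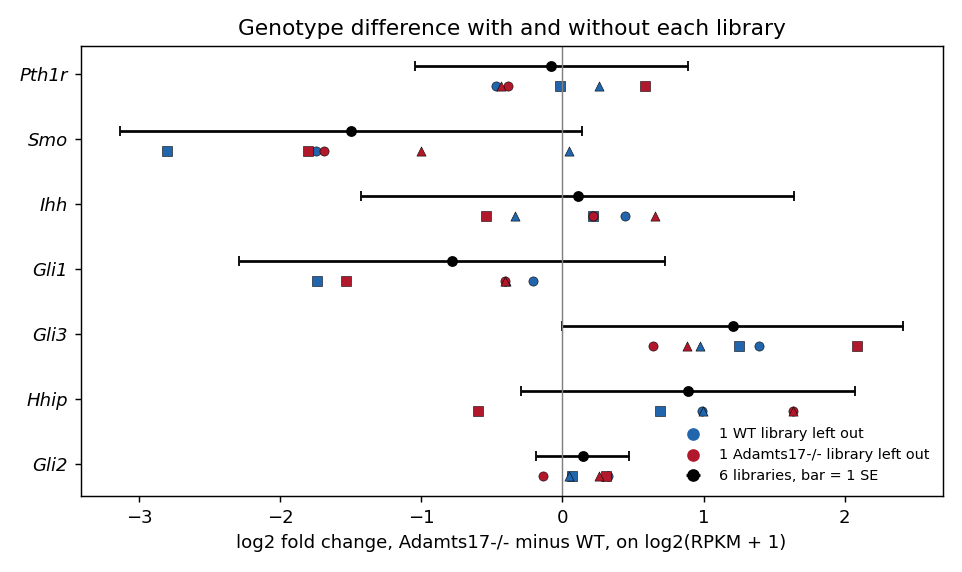
Log2 fold change (Adamts17-/- minus WT, on log2(RPKM + 1), horizontal axis) of 7 loop genes, Ptch1 being too low. Black points with bars are estimates from 6 libraries ± 1 SE, without a filter for Gli2, Gli3 and Hhip, and coloured points are estimates with 1 library of that genotype left out, with circles, squares and triangles for replicates 1, 2 and 3. Ihh, Pth1r, Hhip, Gli2 and Smo change sign with 1 library left out, and Gli1 and Gli3 do not.

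Genes that make, release or carry hedgehog ligands were 13 of 16 in the table and 7 tested, of which 0 passed, with 2 numerically higher and 5 lower in Adamts17-/-. Their median log2 fold change was -0.60, against 0.08 over all genes, ran from -0.78 to -0.24 with 1 library left out (-0.24 without WT replicate 1 or Adamts17-/- replicate 2 or 3) and was 0.12 without both WT replicate 1 and Adamts17-/- replicate 2. Each list gene named from here on had an adjusted p of 0.999 by limma where it was tested, and values after ± are SE. Shh, Boc, Cdon, Sufu, Cul3 and Gnas, like the marker genes given above beside Hhip and Gli1, were chosen after their values were seen. Shh, the related ligand gene, stayed between 0 and 0.525 RPKM, so Ihh was numerically the higher of these ligands in every library. In WT replicate 3 and Adamts17-/- replicate 3 the Ihh level rested on 3 and 2 read equivalents. Ext1, which builds the heparan sulfate chains that hold the ligand in cartilage, had levels of 25.2, 13.7 and 122 (WT) and 12.1, 9.17 and 23.5 RPKM (Adamts17-/-) (log2 fold change -1.28 ± 1.39, SE). Scube2, a secreted protein that aids ligand release, had levels of 7.98, 40.4 and 0.234 (WT) and 0.0573, 11.1 and 0.126 RPKM (Adamts17-/-) (-1.66 ± 1.61). Gpc4, a glypican, was at 0.75 ± 1.42, and -0.13 with library weights. Hspg2, the perlecan core protein, chosen after its values were seen, was the 1 gene of this list without overlap, at 3.12, 2.59 and 3.56 RPKM in WT and 1.11, 1.22 and 1.55 RPKM in Adamts17-/- (-0.83 ± 1.18). Genes lower without overlap were 3.54% of all tested genes.

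Of other receptors and membrane parts, 12 of 15 were in the table and 7 were tested, with 2 higher, 5 lower and 0 past the test. The median log2 fold change was -0.53, turned to 0.09 without WT replicate 3 and was -1.23 without both WT replicate 1 and Adamts17-/- replicate 2. Gas1, a co-receptor, had levels of 1.79, 20.4 and 0.0678 (WT) and 0.0155, 6.56 and 0.108 RPKM (Adamts17-/-) (-0.97 ± 1.25), and 0.24 without WT replicate 2. Lrp2, an endocytic receptor that binds hedgehog proteins, was at -1.72 ± 1.36. Adrbk1, a kinase that phosphorylates Smoothened, had levels of 5.90, 0.738 and 1.69 (WT) and 15.2, 21.7 and 4.15 RPKM (Adamts17-/-) (1.96 ± 1.59). Arrb2, a beta-arrestin, had levels of 3.52, 1.92 and 12.3 (WT) and 0.490, 38.1 and 0 RPKM (Adamts17-/-) and a log2 fold change of -0.53 ± 1.63, with values from -2.20 to 0.45 when 1 library was left out. The co-receptor genes Boc and Cdon were low throughout, at most 4.12 and 3.84 RPKM.

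Regulators of the Gli proteins and parts of the primary cilium, in which the signal is processed, were all in the table. Of the 27, 21 were tested, 10 were higher, 11 lower and 0 passed. The median log2 fold change of -0.12 had no stable sign, at 0.40 without WT replicate 2, 0.11 without Adamts17-/- replicate 2 and -0.28 without Adamts17-/- replicate 1. Csnk1a1, a kinase that phosphorylates Gli proteins for processing, had levels of 33.0, 16.4 and 112 (WT) and 0.141, 77.0 and 0 RPKM (Adamts17-/-) (-3.19 ± 1.64). The related kinase gene Csnk1d was at -2.35 ± 1.49 and Spopl, a ubiquitin ligase adaptor, at -1.88 ± 1.59. Spop, the adaptor that marks Gli proteins for degradation, had levels of 9.23, 0 and 26.8 (WT) and 24.7, 41.9 and 15.9 RPKM (Adamts17-/-) (2.01 ± 1.54). Ift140, of ciliary transport, was at 2.12 ± 1.55 and Kif7, a ciliary kinesin that restrains the pathway, at 1.61 ± 1.38. Cul3, a ubiquitin ligase scaffold, was lower without overlap, with levels of 17.6, 23.5 and 57.9 RPKM (WT) and 16.2, 13.1 and 5.67 RPKM (Adamts17-/-), a log2 fold change of -1.35 ± 1.40. It was the 1 gene without overlap among the 21 tested, beside 3.54% of all tested genes lower without overlap. Sufu, the main inhibitor of Gli proteins, did not pass the filter, with levels of 0.155, 0.281 and 2.68 (WT) and 0.0845, 0 and 0 RPKM (Adamts17-/-).

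Other genes reported as hedgehog targets in some tissue were 15 of 24 in the table and 8 tested, with 2 higher, 6 lower and 0 past the test. The median log2 fold change was -0.69, from -1.25 (without Adamts17-/- replicate 3) to -0.52, with -1.21 without WT replicate 2. Ccnd1, cyclin D1, had levels of 8.09, 1.43 and 6.34 (WT) and 22.7, 7.04 and 9.09 RPKM (Adamts17-/-) (1.19 ± 1.56). Ccnd2, cyclin D2, was at 0.41 ± 1.41, and -0.23 without Adamts17-/- replicate 3. Prdm1, a transcriptional repressor, had levels of 9.01, 43.7 and 10.3 (WT) and 17.8, 0.0286 and 0.320 RPKM (Adamts17-/-) (-2.54 ± 1.65). Bmp4, a bone morphogenetic protein, was at -1.66 ± 1.36 and Rab34, a small GTPase of ciliogenesis, at -1.66 ± 1.60.

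Downstream of Pth1r, 25 of 30 listed genes were in the table and 17 were tested, with 5 higher, 12 lower and 0 past the test. The median log2 fold change was -0.28, and it turned to 0.11 without Adamts17-/- replicate 2 and to 0.0093 without WT replicate 2, and was -0.54 without Adamts17-/- replicate 1. Mef2c, a factor that drives hypertrophy and that PTHrP signalling holds back, was lower without overlap, at 36.9, 52.5 and 217 RPKM in WT and 33.2, 23.6 and 2.95 RPKM in Adamts17-/- (-2.35 ± 1.36). Among the 17 tested it was the 1 gene without overlap, beside 3.54% of all tested genes lower in that way. Gnaq, a G protein subunit that couples the receptor to phospholipase C, had levels of 12.3, 1.09 and 66.2 (WT) and 3.30, 4.50 and 0.300 RPKM (Adamts17-/-) (-1.98 ± 1.66). Adcy6, an adenylyl cyclase, was at -1.63 ± 1.20. Rgs2, which shortens G protein signalling, had levels of 15, 8.60 and 0.0776 (WT) and 13.3, 47.7 and 31.1 RPKM (Adamts17-/-) (2.36 ± 1.53). Prkar2a, a regulatory subunit of protein kinase A, was at 1.27 ± 1.39 and Cdkn1b, a cell cycle inhibitor, at 1.06 ± 1.56. Gnas, the stimulatory G protein subunit through which the receptor raises cAMP, had levels of 71.9, 19.7 and 52.4 (WT) and 72.8, 125 and 32.9 RPKM (Adamts17-/-).

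Of genes reported to act upstream of Ihh, 14 of 18 were in the table and 10 were tested, with 4 higher, 6 lower and 0 past the test. The median log2 fold change was -0.60, and it lay between -0.57 and -0.06 with 1 library left out, nearest to 0 without Adamts17-/- replicate 1 or WT replicate 3. Fgfr3, the receptor that slows chondrocyte proliferation and lowers Ihh, was lower without overlap, at 40.0, 26 and 10.7 RPKM in WT and 2.47, 5.25 and 1.57 RPKM in Adamts17-/- (-2.62 ± 1.53). No other of the 10 tested was without overlap, beside 3.54% of all tested genes lower in that way. The log2 fold change of Fgfr3 ran from -3.12 to -2.22 with 1 library left out. Sox9, the master factor of cartilage, was at -0.88 ± 1.48, and 0.40 without WT replicate 1 and Adamts17-/- replicate 2. Cbfb, the partner of Runx factors, had levels of 14.2, 7.45 and 92.2 (WT) and 2.34, 144 and 0.0769 RPKM (Adamts17-/-). Its log2 fold change was -1.51 ± 1.67. It was -3.59 when Adamts17-/- replicate 2 was left out and -0.06 when Adamts17-/- replicate 3 was, while its mean level was higher in Adamts17-/- (48.7 against 38.0 RPKM). Dlx5, a homeobox factor of maturing cartilage, had levels of 4.96, 11.7 and 1.37 (WT) and 38.8, 34.5 and 0 RPKM (Adamts17-/-) (0.99 ± 1.68). Runx3 was at 0.97 ± 1.63 and Atf4 at 0.50 ± 1.19.

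Marker lists of cartilage and of other tissues also differed numerically between the genotypes. Of 16 tested markers of resting and proliferating cartilage, 15 were numerically lower in Adamts17-/-, with a median log2 fold change of -1.33. Of 15 tested hypertrophic markers 11 were lower, with a median of -1.31. Sox9 is one of the 16 and Mef2c one of the 15. Skeletal muscle markers were lower for 9 of 9 tested genes (median -2.78), endothelial markers for 10 of 12 (-0.58) and osteoclast markers for 7 of 8 (-0.97). Erythroid markers were higher for 10 of 10 (1.57) and myeloid markers for 8 of 11 (1.14). Over all tested genes, 47.2% were lower and 52.8% higher. Hbb-b2 and Hbb-bt, both among the 10, had the same values in every library. The muscle sum of WT replicate 3 (266 RPKM) lay below those of all Adamts17-/- libraries (364 to 563 RPKM). The erythroid sum of WT replicate 2 (69754 RPKM) lay above those of Adamts17-/- replicates 1 and 3 (20114 and 3712 RPKM). No gene of these lists passed the test, and their part in the values of the pathway genes was not tested. The summed level of the proliferating list was 1212 to 4413 RPKM in WT and 561 to 1552 RPKM in Adamts17-/-. Whether Ihh and Pth1r, at 0.11 and -0.08, differ from these medians was not tested.

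**Figure D4:**
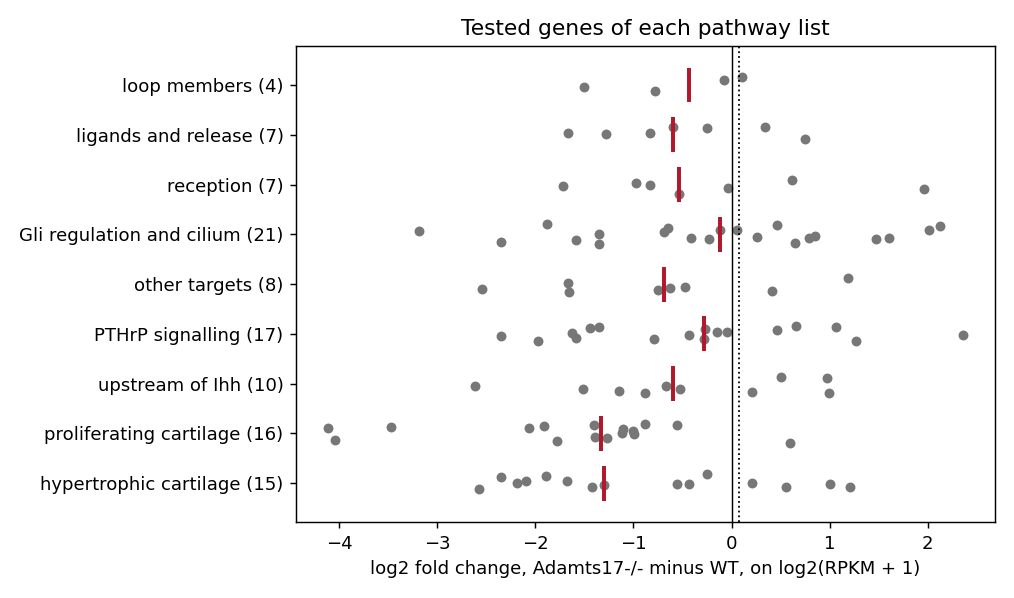
Log2 fold change (Adamts17-/- minus WT, on log2(RPKM + 1), horizontal axis) of each tested gene, by list, with the number tested in brackets. Red bars are list medians and the dotted line is the median of all 9128 tested genes. Genes of each pathway list lie on both sides of 0, while 15 of 16 genes of proliferating cartilage lie below it.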

How the data were processed

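The authors deposited 1 table of 14882 genes by 6 libraries, with coordinates and transcript lengths. The deposited values were read as RPKM, a unit inferred from the values and stated nowhere in the sources used here. This reading rests on the many values that, times transcript length, fall on whole multiples of 1 step per library. Whether the others are simple fractions of the step was not tested. The name of the table points to scaling by trimmed mean of M-values (TMM). Neither aligner nor counter nor build is given in the sources used here. Gene starts lay within 1000 bases of RefSeq GRCm38.p6 for 89.9% of 13903 symbols, and coordinates are the table's own. Read equivalents are value times length divided by the step. Between 24.0% and 34.4% of those from 1 to 20 were whole within 0.01, so no count model was the main test.

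Columns were matched to samples by description and groups taken from titles. Genotypes were compared with limma 3.58.1 (R 4.3.3) on log2(RPKM + 1), which understates changes of low genes, with an intensity trend, two-sided, Benjamini-Hochberg adjusted over all genes with 1 RPKM or more in 3 or more libraries, threshold 0.05. Python 3.11.15, numpy 2.4.6, pandas 2.3.3 and matplotlib 3.10.9 were used for the rest. Exact permutation tests were two-sided. Of 258 list entries 227 were matched to rows.

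Named were the members, Adamts17, Col10a1, Mmp13, Col2a1, up to 3 genes per direction and pathway list (largest change, group mean of 5 or more on the higher side) and the 3 genes most correlated with Ihh, Pth1r and Ptch1. Members, lists, tests and alternatives were chosen with earlier results of these data known. Alternatives were other pseudocounts, filters, scalings and spread models, library weights, a replicate block, libraries left out and, added after seeing the data, voom.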

Additional observations from a re-analysis of the deposited data

How the results depend on the processing

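The 0 members called stayed 0 in all 18 alternatives. Genes called over the whole table were 0 in all but library weights (1, with 799 at an unadjusted p under 0.05, against 229) and leaving out 1 library (0 to 5, with 5 without Adamts17-/- replicate 3). The median log2 fold change of tested members was -0.43, ran from -1.04 to -0.14 with 1 library left out, and turned to 0.015 without a filter, where all 8 measured members enter. Upper-quartile scaling moved the median of all genes by -0.23 and voom moved it by -0.41.

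Of 42 named genes, 25 of 737 values changed sign, in 10 genes, none of which had passed. The 737 include settings in which a gene's fold change cannot move (filters, no intensity trend and the replicate block), so the share understates how easily signs turn. Ihh moved to -0.17 (upper-quartile scaling), -0.014 (quantile normalization), -0.55 (library weights), -0.21 (without both WT replicate 1 and Adamts17-/- replicate 2) and -0.12 (voom). Pth1r moved to 0.78 with library weights and 0.19 without both libraries. Hhip moved to -0.50 without both and -0.33 with voom. Sox9 moved to 0.40 without both, Gpc4 to -0.13 with library weights, Arrb2 to 0.019 with a pseudocount of 4 and Ccnd2 to -0.28 with voom. With 1 library or both of those libraries left out, values ran from -0.54 to 0.65 for Ihh, -0.47 to 0.58 for Pth1r, -0.14 to 0.49 for Gli2, -0.60 to 1.64 for Hhip, -2.80 to 0.047 for Smo, -2.17 to 0.24 for Gas1, -2.35 to 0.45 for Arrb2, -0.23 to 1.11 for Ccnd2 and -2.06 to 0.40 for Sox9. The causes were not tested.

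With a replicate block (the titles' numbers as a factor) the count of called genes was 0 and that at an unadjusted p under 0.05 was 171. The fold changes cannot move in this setting, since each number holds 1 library of each genotype. Deviations of libraries with a shared number correlated at -0.01, -0.35 and -0.10, and no library correlated best with its own number. With 3 libraries per group these values cannot decide whether libraries with a shared number were paired. Depth limits Ptch1 and Gli2 in most libraries, at or below 3 read equivalents. Hhip was under 3 read equivalents in WT replicate 2 and Adamts17-/- replicates 1 and 3.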

Other observations

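WT replicate 3, the library with the highest Smo, also had the highest level of Foxc2, Foxc1 and Snai1, which are on the list of hedgehog targets and were chosen here after their values were seen. Foxc2, a forkhead factor of mesenchyme, was at 42.4 RPKM in that library and at most 0.642 RPKM in the other 5. Foxc1 was at 54.4 RPKM there, against 0.0319 to 25.8 RPKM elsewhere, and Snai1, a repressor of epithelial genes, at 12 RPKM against at most 2.55 RPKM. Of the 15 genes of that list with values, all others were highest in another library. Among these were the forkhead genes Foxf1 (0.771 RPKM against 2.83 RPKM in WT replicate 1) and Foxl1 (0.0789 RPKM against 0.715 RPKM in WT replicate 1). Of the pathway readouts in the same library, Ptch1 was at 0.543 RPKM, its highest of the 6, but on 2 read equivalents. Gli1 was at 8.27 RPKM, among its 3 high libraries. Hhip was at 0.772 RPKM, beside 0.759 RPKM in WT replicate 1 and 21.4 RPKM in Adamts17-/- replicate 2. Whether the pathway was more active in WT replicate 3 was not tested.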
